A study of Bombyx mori with 3 samples.

Results

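The vacuolar H+-ATPase (V-ATPase) of the silkworm midgut was represented by 16 probes among the 3964 probes kept for analysis, of 23229 gene probes on the array. Members were probes whose deposited description named a vacuolar or V-type ATPase and whose spot carried the authors' signal mark on all 3 arrays. The words alone matched 23 probes, and 7 of these lacked the mark on at least 1 array. By the subunit named in the description, 9 members belong to the V1 sector, 6 to the V0 sector and 1 is an accessory subunit. A gene identifier was given for 11 members, which carry 10 distinct identifiers because 2 probes of subunit C share one. The other 5 members are known only by their best protein match in the deposited description.

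The V-ATPase is a rotary pump. Its cytoplasmic V1 sector splits ATP, and the energy turns a rotor that drives protons through the membrane-embedded V0 sector. In the midgut of caterpillars the pump sits in the apical membrane of goblet cells, where it energises potassium secretion, the alkaline gut lumen and the cation-coupled uptake of amino acids. In the related moth Manduca sexta the V1 sector can detach reversibly from V0, which switches the pump off.

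Larvae of strain P50 received mulberry leaves dipped for 1 min in phoxim at 4 µg/mL, or in water for the controls, from day 3 of the fifth instar. Midguts were dissected after 24 h, and the protocol gives 30 larvae for each experiment. Phoxim is an organophosphate insecticide that inhibits acetylcholinesterase. Both groups share strain, stage and tissue, and each of the 3 two-colour arrays paired 1 phoxim RNA with 1 control RNA. The arrays are described in the series as biological replicates, but no label ties larvae to an array. The p-values therefore measure no spread beyond that between these 3 arrays. In limma, each probe's spread is also drawn toward that of all kept probes. Values below are deposited intensities on a linear scale and the log2 of the deposited ratio of phoxim over control, which the authors had already normalized within each array. Because whole midguts were used, fewer cells of a type and less RNA per cell cannot be told apart. A probe's intensity depends on its sequence, so levels are compared between arrays and channels of 1 probe and not between probes.

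The direction of replicate 2 is not settled. The labels put phoxim in Cy5 on every array, whereas the file header of replicate 2 puts phoxim in Cy3 and still states its ratio as phoxim over control. Headers were followed here. On that reading, replicates 1 and 2 correlated at r = 0.62 across the 3964 kept probes and at r = -0.47 across all 23229 gene probes, where dim spots dominate. Replicate 3 correlated with replicate 1 at 0.18 across the kept probes and at 0.42 across all gene probes, and with replicate 2 at 0.26 and at -0.45. These correlations run across genes, which are not independent replicates. Turning replicate 2 reverses the sign of each correlation with it. Means of the members, and counts over them that use replicate 2, are therefore also given with its sign turned, which is the reading of the labels.

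No V-ATPase probe passed the test for a shared difference across the arrays, with either reading of replicate 2. The log2 ratio was below 0 for 12 of 16 members on replicate 1, below 0 for 13 of 16 on replicate 2 by the header, and above 0 for 15 of 16 on replicate 3. Turned, 13 of 16 were above 0 on replicate 2 (45.2% of kept probes), with a median of 0.24. Values above 0, found in 4, 3 and 15 members, made up 53.8%, 54.8% and 55.1% of all kept probes on these arrays. By the headers, the members' medians were -0.41, -0.24 and 0.32, against 0.050, 0.048 and 0.039 for all kept probes. After loess normalization from the intensities, the members' medians were -0.59, -0.44 and 0.071. With loess, 12 of 16 members were above 0 on replicate 3 (2029 of 3964 kept probes), so the height of replicate 3 depended on the normalization. At an adjusted p of 0.05 in limma, 0 of 16 members were called, where 27 of 3964 probes (0.681%) were called on the whole array. At an unadjusted p of 0.05, limma gave 0 of 16 members and 603 probes (15.2%) of the array. Adjusted p-values of the members ran from 0.36 to 0.96. With the headers' direction, all 16 of the 95% limma intervals included 0, with half-widths of 0.38 to 0.96 on the log2 scale. These intervals draw each probe's variance toward that of all kept probes. The members' median SD of the log2 ratio, 0.45, was above the 0.29 of all kept probes. With the variance so moderated, the intervals excluded a 2-fold rise for 16 members and a 2-fold fall for 15, the exception being a probe of subunit C. Intervals from each probe's own SD alone were not computed, and would be wider for members with a large SD.

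**Figure D1:**
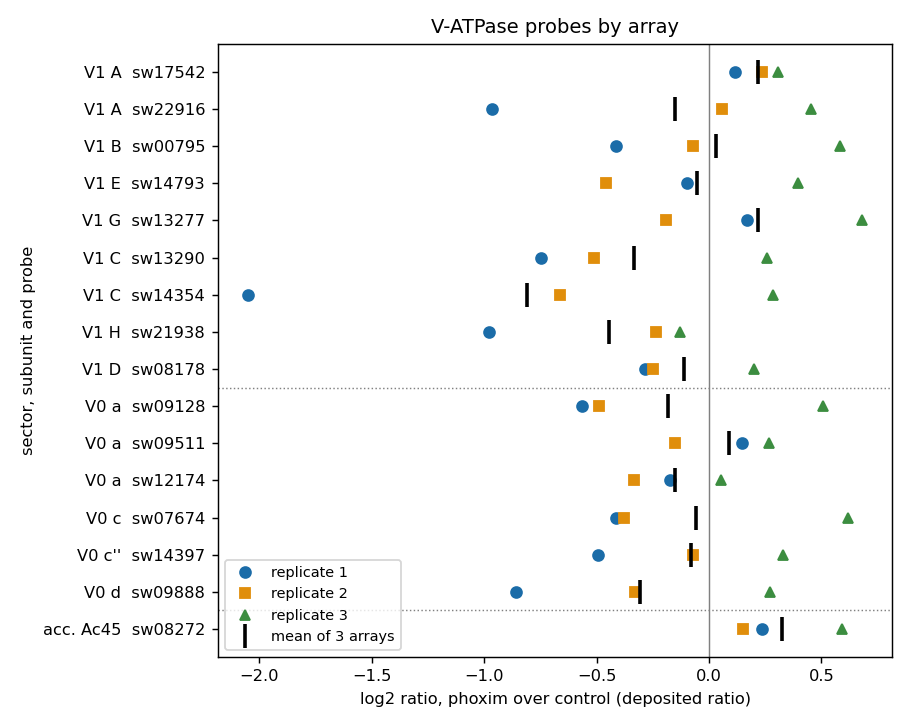
Log2 ratio of phoxim over control (horizontal axis) for each of the 16 V-ATPase probes (vertical axis, grouped into V1, V0 and accessory by dotted lines). Symbols are the 3 arrays and black bars their means. Replicate 3 lies farthest right for all 16 probes by the file headers, and for 9 with replicate 2 turned, and only subunit H is below 0 on it.

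The catalytic head of V1 is a ring of alternating A and B subunits, of which A binds and splits ATP. The A probe sw17542 read 10143 in phoxim and 9180 in control on replicate 1, 9203 and 9762 on replicate 2, and 9574 and 9272 on replicate 3. Its log2 ratios were 0.11, 0.23 and 0.31, with a mean of 0.22 ± 0.098 (SD, n = 3; limma adjusted p = 0.51), and of 0.063 ± 0.27 with replicate 2 turned. Its channels by the headers stayed within 1.10-fold of themselves across arrays in phoxim and 1.06-fold in control. The other A probe, sw22916 (LOC100037424), read 1555 against 3440, 2409 against 2095, and 3475 against 3036 on replicates 1, 2 and 3. Its ratios of -0.97, 0.060 and 0.46 averaged -0.15 ± 0.73 (limma adjusted p = 0.82), and -0.19 with replicate 2 turned. The phoxim channel was low on replicate 1, and without that array the mean was 0.26. The log2 ratio of sw17542 minus that of sw22916 was 1.08 on replicate 1, 0.17 on replicate 2 and -0.15 on replicate 3. Only sw22916 carries a gene identifier, so the files do not say whether both detect 1 transcript.

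Subunit B, the non-catalytic partner of A in the ring, was measured by sw00795 (LOC100037422). Phoxim and control intensities were 7471 and 9491 on replicate 1, 5512 and 8691 on replicate 2, and 12114 and 7597 on replicate 3. The log2 ratios were -0.41, -0.073 and 0.58, with a mean of 0.032 ± 0.51 (limma adjusted p = 0.96), and of 0.081 with replicate 2 turned. By the headers, phoxim was the lower channel on replicates 1 and 2 and the higher one on replicate 3. Control intensities spanned 1.25-fold over the arrays and phoxim intensities 2.20-fold by the headers, and 1.72-fold and 1.62-fold by the labels' dyes.

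The peripheral stalk, made of E and G subunits, holds the head still against the turning rotor. The E probe sw14793 (LOC732990) read 14464 against 12851, 8206 against 25700 and 21292 against 13667 in phoxim and control on replicates 1, 2 and 3. The G probe sw13277 (LOC692985) read 29832 against 23079, 14296 against 31859 and 33430 against 19002. In both, phoxim was the brighter channel on replicates 1 and 3 and, by the header, much the dimmer on replicate 2. The deposited ratios were milder than these intensities. For E the plain quotient on replicate 2 was 0.319, whereas its deposited log2 ratio was -0.46, and for G a quotient of 0.449 stood beside a log2 ratio of -0.19. Across the arrays, E had log2 ratios of -0.096, -0.46 and 0.39, with a mean of -0.053 ± 0.43 (limma adjusted p = 0.92). For G the ratios of 0.17, -0.19 and 0.68 gave a mean of 0.22 ± 0.44 (limma adjusted p = 0.61). With the sign of replicate 2 turned, these means were 0.25 for E and 0.35 for G.

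Subunit C joins the peripheral stalk to V0 and is the subunit released when V1 detaches in Manduca sexta. Its brighter probe, sw14354 (LOC692828), read 3645 in phoxim and 10854 in control on replicate 1, 4526 and 7548 on replicate 2, and 10201 and 9352 on replicate 3. The log2 ratios of -2.05, -0.66 and 0.28 included the lowest of any member on any array by either reading, and the mean was -0.81 ± 1.17 (95% interval -1.77 to 0.15, limma adjusted p = 0.38). Turning replicate 2 gave a mean of -0.37 ± 1.47. Phoxim intensity varied 2.80-fold over the arrays by either reading, and control intensity 1.44-fold by the headers and 2.40-fold by the labels. This probe was not called over the 3 arrays and was called only when replicate 3 was left out. Without replicate 3 the mean was -1.35 and the limma adjusted p was 0.029, in a fit of 2 arrays that called 11.9% of the array. The dimmer probe, sw13290, carries the same gene identifier but a different gene model in the array annotation (Bmb017484, against Bmb024622 for sw14354). This dimmer probe read 600 against 1059, 764 against 970 and 1011 against 905. It gave ratios of -0.75, -0.51 and 0.26, with a mean of -0.33 ± 0.53 (limma adjusted p = 0.49), and of 0.0064 with replicate 2 turned. The probes had the same sign on each array. The dimmer probe's ratio minus the brighter probe's was 1.30, 0.15 and -0.027 in turn.

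Subunit H inhibits ATP splitting by detached V1 in yeast. Its probe sw21938 (LOC733031) read 10357 against 15833 on replicate 1, 11407 against 15206 on replicate 2 and 13243 against 14588 on replicate 3. By the headers, phoxim was the lower channel on each array and the log2 ratio was below 0 each time, in 1 of 16 members and 14.3% of all kept probes. With replicate 2 turned, 0 of 16 members (7.32% of kept probes) were below 0 on all arrays, since subunit H was at 0.24 on replicate 2. The ratios were -0.98, -0.24 and -0.13, with a mean of -0.45 ± 0.46 (95% interval -0.95 to 0.060). Its p in limma was 0.075 unadjusted and 0.36 adjusted. Turning replicate 2 moved the mean to -0.29 and the unadjusted limma p to 0.36.

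Subunit D forms the central rotor shaft. Its marked probe, sw08178 (LOC692984), read 9888 against 10607, 8939 against 14620 and 12035 against 10789. Ratios of -0.28, -0.25 and 0.20 averaged -0.11 ± 0.27 (limma adjusted p = 0.78), and 0.056 with replicate 2 turned. The channels were closest on replicates 1 and 3 and farthest apart on replicate 2. The other 2 probes described as subunit D lacked the mark, with intensities of 0 to 102, and are given with the dim probes below.

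**Figure D2:**
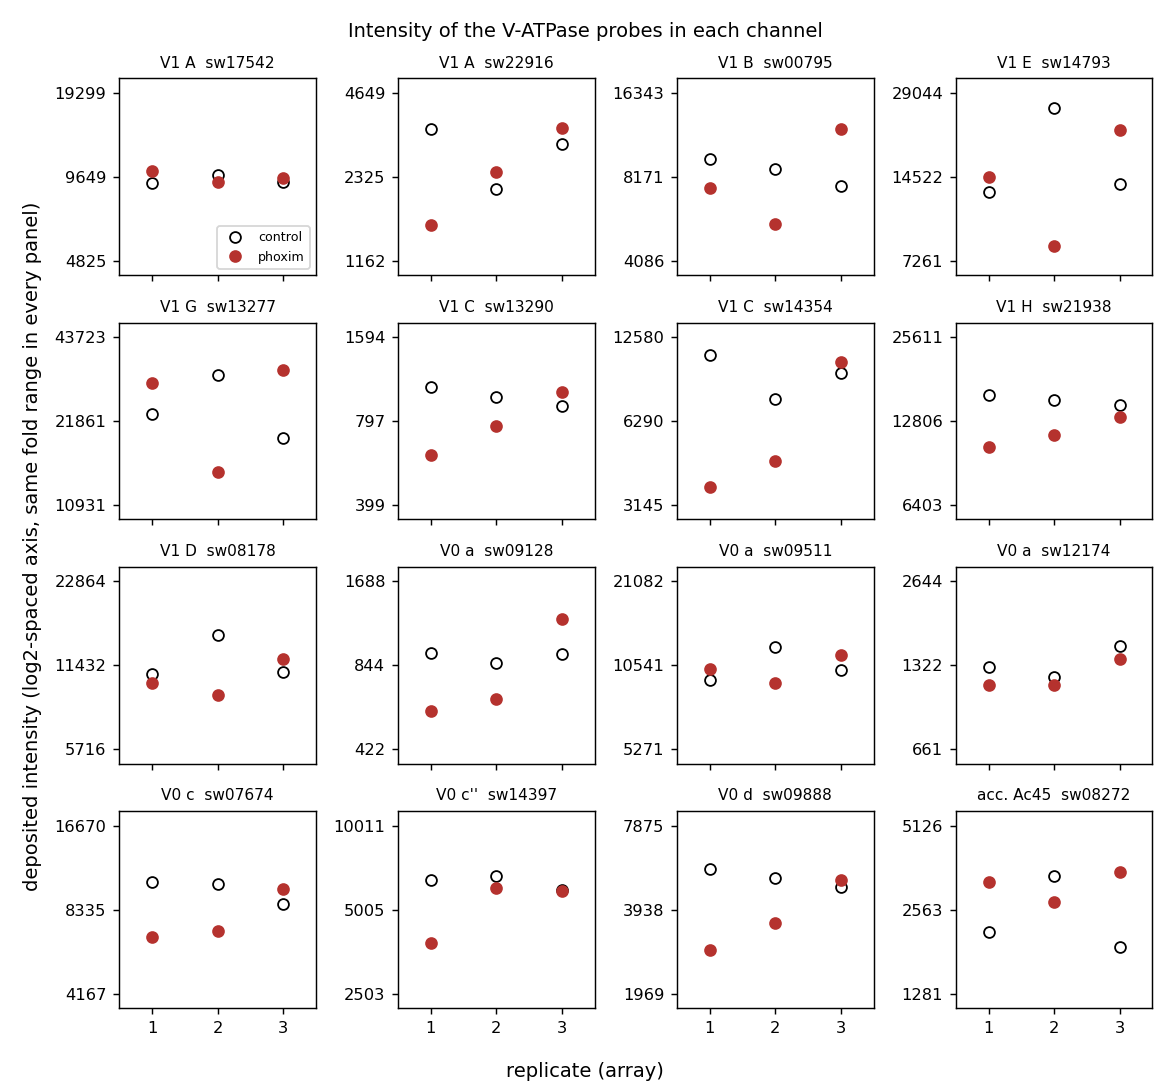
Deposited intensity (vertical axis, log2-spaced, the same fold range in each panel) on the 3 arrays (horizontal axis) for the 16 V-ATPase probes, with phoxim as filled and control as open circles. In the panel of subunit C probe sw14354, phoxim lies between 3645 and 10201 while control lies between 7548 and 10854 by the file headers, and between 4526 and 10854 by the labels' dyes.

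In V0, the proteolipids form the ring that carries protons and turns with the rotor. The subunit c probe sw07674 (LOC778463, now named VATPc) read 6646 in phoxim and 10453 in control on replicate 1, 6986 and 10305 on replicate 2, and 9890 and 8715 on replicate 3. Log2 ratios of -0.41, -0.38 and 0.62 averaged -0.057 ± 0.59 (limma adjusted p = 0.93), and 0.19 with replicate 2 turned. By the headers, phoxim was the lower channel on replicates 1 and 2 and the higher on replicate 3. The larger proteolipid, c'' (sw14397, LOC692859), read 3791 against 6372, 5964 against 6609 and 5850 against 5897. Its ratios were -0.49, -0.071 and 0.33 and its mean -0.078 ± 0.41 (limma adjusted p = 0.87), or -0.030 with replicate 2 turned. Here the phoxim channel of replicate 1 stood apart, and control intensities spanned 1.12-fold by the headers and 1.08-fold by the labels.

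Subunit d caps the ring and couples it to the central shaft. Its probe sw09888 (LOC732966) read 2811 against 5516 on replicate 1, 3533 against 5126 on replicate 2 and 5009 against 4750 on replicate 3. The log2 ratios of -0.86, -0.33 and 0.27 gave a mean of -0.31 ± 0.56 (limma adjusted p = 0.53), or -0.087 with replicate 2 turned. Control intensities spanned 1.16-fold and phoxim intensities 1.78-fold by the headers, and 1.56-fold and 1.82-fold by the labels.

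Subunit a holds the half-channels through which protons enter and leave the ring, and insects carry several a genes. Of 8 probes described as subunit a, 3 were marked on all arrays. The probe sw12174, whose best match is the Manduca sexta protein, read 1125 against 1309, 1127 against 1197 and 1389 against 1554. By the headers the phoxim channel was slightly lower each time, with log2 ratios of -0.17, -0.33 and 0.055 (mean -0.15 ± 0.19, limma adjusted p = 0.66; 0.071 with replicate 2 turned). A second a probe, sw09511, best matched to Aedes, read 10185 against 9352, 9089 against 12225 and 11507 against 10115. Its ratios of 0.15, -0.15 and 0.27 averaged 0.088 ± 0.22 (limma adjusted p = 0.82). With replicate 2 turned all 3 ratios were above 0, with a mean of 0.19 ± 0.068. The third, sw09128, also best matched to Aedes, read 577 against 937, 641 against 860 and 1234 against 923. With ratios of -0.56, -0.49 and 0.51 it averaged -0.18 ± 0.60 (limma adjusted p = 0.72), or 0.14 with replicate 2 turned. Its phoxim channel on replicate 3 was 2.14-fold that on replicate 1, while control stayed within 1.09-fold by the headers and 1.46-fold by the labels. By the headers the 3 a probes had their highest ratio on replicate 3, at 0.055, 0.27 and 0.51, but with replicate 2 turned sw12174 had its highest there, at 0.33.

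The accessory glycoprotein Ac45 assists the sorting and activity of the pump in vertebrates. The probe sw08272, whose best match is a zebrafish Ac45 protein, read 3225 against 2133, 2722 against 3381 and 3481 against 1887. By the headers, phoxim was the brighter channel on replicates 1 and 3 and the dimmer on replicate 2, although the deposited log2 ratio was above 0 on all 3 arrays. The ratios of 0.24, 0.15 and 0.59 gave a mean of 0.33 ± 0.23 (95% interval -0.083 to 0.73, limma adjusted p = 0.40), or 0.23 with replicate 2 turned. This probe and the A probe sw17542 were the 2 members above 0 on each array by the headers, beside 23% of all kept probes. When replicate 2 was turned both were below 0 on it, and the 2 members above 0 on each array were G (sw13277) and the a probe sw09511, beside 7.62% of kept probes.

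In the deposited ratio, replicates 1 and 3, whose dyes are not in doubt, differed in the same direction throughout the family. The log2 ratio was higher on replicate 3 than on replicate 1 for 16 of 16 members (50.9% of kept probes), a comparison chosen for description after the values were seen. After loess normalization from the intensities, the A probe sw17542 went the other way, from -0.044 on replicate 1 to -0.059 on replicate 3. By the headers, all 16 members had their highest ratio on replicate 3 (38.6% of kept probes), and with replicate 2 turned 9 did (27.3%). By the headers, the lowest ratio was on replicate 1 for 11 members (36% of kept probes) and on replicate 2 for 5 (26.4%). With replicate 2 turned, these were 14 (36.9%) and 2 (43.4%). Below 0 on replicates 1 and 2 and above 0 on replicate 3 were 10 members by the headers (16.9% of kept probes) and 1 with replicate 2 turned (7.67%). With the headers' direction, the count of 16 highest on replicate 3 was also found after median centring and after scaling the arrays, and was 13 after loess normalization from the intensities. Means were below 0 for 11 members (45.5% of kept probes), and for 5 with replicate 2 turned (47.6% of kept probes). The median of the 16 means was -0.094, against 0.035 for all kept probes, and 0.067, against 0.0091, with replicate 2 turned.

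The sectors were alike on replicates 1 and 3, and on replicate 2 their order depended on the reading. By array, in the order of replicates, the V1 median was -0.41, -0.24 and 0.31, and the V0 median was -0.45, -0.33 and 0.30. Turned, replicate 2 had medians of 0.24 for V1 and 0.33 for V0, so that the V1 median was highest on replicate 3 and the V0 median on replicate 2. Single probes did not follow the medians. Turned, 4 V1 members were highest on replicate 3 and 5 on replicate 2, and 4 V0 members on replicate 3 and 2 on replicate 2. Of 3964 kept probes, 1082 were highest on replicate 3 and 1274 on replicate 2. The medians of their means were -0.11 and -0.11, and 0.056 and 0.11 with replicate 2 turned. Among members, ratios on replicate 1 and replicate 2 correlated at r = 0.54 (rho = 0.43), those on 1 and 3 at 0.30 (0.33) and those on 2 and 3 at 0.19 (0.23). Turned, the first was -0.54 (-0.43) and the last -0.19 (-0.23). These are descriptions over 16 probes that share the same RNA on each array.

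Array differences were also compared by channel. Each channel's log2 intensity was centred on the median of the kept probes in that channel, without the authors' within-array normalization of the ratio. Members were brighter than the typical kept probe, with centred medians of 2.12 to 3.18 in phoxim and 2.81 to 3.04 in control by the headers. The shares of kept probes given here were not matched for brightness. By the headers, the SD over the 3 arrays was larger in phoxim than in control for 15 of 16 members (56.3% of kept probes), with Ac45 as the exception. The median SD was 0.43 in phoxim and 0.18 in control, against 0.26 and 0.23 for all kept probes. With the dyes of replicate 2 taken from the labels, the count was 8 of 16 (55.9% of kept probes) and the medians were 0.40 and 0.35. Replicates 1 and 3 do not have this ambiguity, because labels and headers both put phoxim in Cy5. Between these arrays the centred phoxim intensity was higher on replicate 3 for 16 of 16 members (51% of kept probes), by 0.017 to 1.58 and by 0.67 at the median. Control intensity was higher on replicate 3 for 3 of 16 (51.9% of kept probes), with a range of -0.37 to 0.20 and a median of -0.19. The phoxim change was the larger in 13 of 16 (56% of kept probes). Since phoxim and Cy5 coincide on these arrays, treatment and dye cannot be told apart in this comparison.

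**Figure D3:**
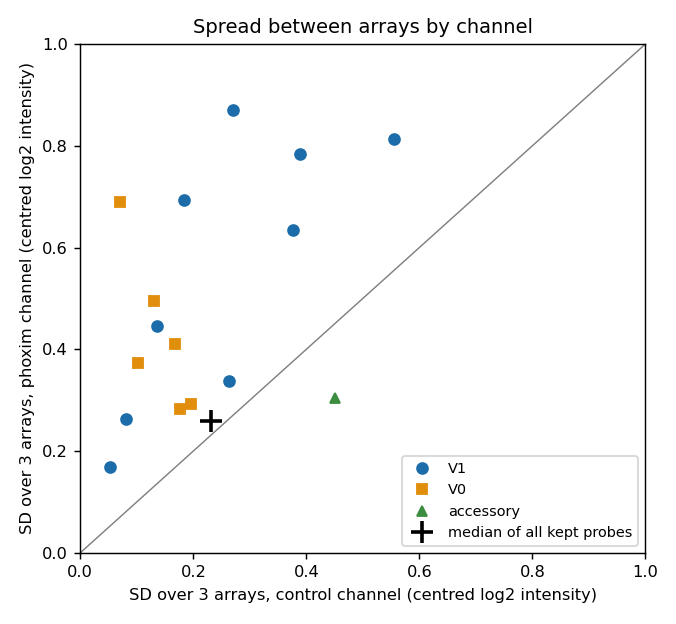
SD over the 3 arrays of the centred log2 intensity in the control channel (horizontal axis) and in the phoxim channel (vertical axis) for the 16 V-ATPase probes, with channels read from the file headers. Of these, 15 lie above the diagonal of equal spread and Ac45 lies below it (8 of 16 have the larger SD in phoxim with the labels' dyes), while the median of all kept probes is at 0.23 and 0.26.

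Genes related to the pump were sought with 9 word lists covering 170 probes, of which 35 were kept. In limma, 1 of the 35 was called higher and none lower (20 probes, 0.505%, higher and 7, 0.177%, lower on the whole array). An unadjusted limma p below 0.05 was found for 5 of the 35 (15.2% of all kept probes). The 1 called was a probe described as a carbonic anhydrase, an enzyme class that interconverts carbon dioxide and bicarbonate. This probe, sw12231, has a bacterial protein as its best match, so its identity in the silkworm is uncertain. It read 991 against 508, 1592 against 579 and 1626 against 835 in phoxim and control. It rose, with log2 ratios of 1.19, 1.52 and 1.17 (mean 1.29 ± 0.19, limma adjusted p = 0.028). The call was lost without replicate 1 and without replicate 2, with replicate 2 turned (mean 0.28), and under 4 other settings given at the end. The second kept carbonic anhydrase, sw15626, averaged -0.17 ± 0.44.

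The mitochondrial ATP synthase, a rotary relative of the pump that makes ATP, had 15 kept probes of 22. None was called and 2 had an unadjusted limma p below 0.05 (15.2% of all kept probes). The median log2 ratio of the 15 probes was -0.14, -0.27 and -0.090 by array. Of these probes, the one with the smallest p was the O subunit of the stalk (sw06908, LOC733114), with log2 ratios of -0.88, -1.25 and -0.30 (mean -0.81 ± 0.48, limma adjusted p = 0.16). By the headers, 8 of these 15 probes had their highest ratio on replicate 3 (38.6% of kept probes). Among these were 2 beta subunit probes that, like many V-ATPase members, were below 0 on replicates 1 and 2 and above 0 on replicate 3. Their log2 ratios were -1.24, -0.79 and 0.087 (sw21555) and -0.99, -0.85 and 0.14 (sw21438). On replicate 3, 6 of the 15 probes were above 0 and 9 below.

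Cation-coupled nutrient transporters use the gradient that the pump sets up. Their list was matched by words for amino acid, neurotransmitter and sugar transporters. It also holds probes described as facilitated glucose transporters, such as sw00146 and sw01653. Its counts and medians are therefore not those of cation-coupled transporters alone. Of 56 probes 13 were kept, none was called, and medians were -0.030, 0.038 and 0.18. The smallest p belonged to a potassium-coupled amino acid transporter best matched to Manduca sexta, sw19553. It read 427 against 1360, 1463 against 2316 and 844 against 1123, with ratios of -1.38, -0.91 and -0.13 (mean -0.81 ± 0.63, limma adjusted p = 0.22). Chloride and bicarbonate transport had 1 kept probe of 30, the chloride intracellular channel sw04342 (LOC733121). Its ratios were -1.07, -0.50 and 0.059 (mean -0.50 ± 0.56, limma adjusted p = 0.35). Among 10 probes for energy supply 4 were kept and none was called, and adenylate kinase (sw01149), which recycles adenine nucleotides, had the smallest p with a mean of -0.27 ± 0.43 (limma adjusted p = 0.53). In the turned reading, means were 0.026 for sw06908, -0.20 for sw19553, -0.17 for sw04342 and 0.22 for sw01149. None of the 34 potassium channel probes, 9 P-type ATPase probes, 3 antiporter probes and 1 assembly factor probe was kept, so these groups were below the signal mark on at least 1 array.

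**Figure D4:**
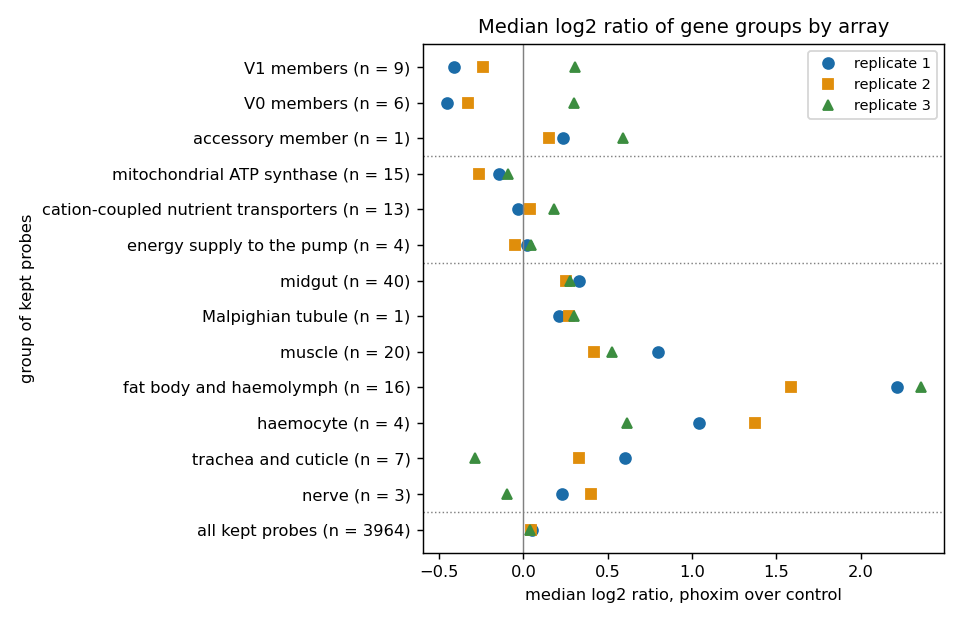
Median log2 ratio of phoxim over control (horizontal axis) on each array for V-ATPase sectors, pump-related lists, tissue marker lists and all kept probes, with the number of kept probes in brackets. By the file headers, the V1 and V0 medians lie left of 0 on replicates 1 and 2 and right of 0 on replicate 3 (right of 0 on replicate 2 when it is turned), while the fat body and haemolymph medians lie between 1.59 and 2.36.

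The labelled tissue was checked with marker words for midgut and other tissues, with channels and direction by the headers. Of 93 midgut marker probes 40 were kept, with summed intensities of 508939 to 649502 in phoxim and 427861 to 605634 in control, and medians of 0.33, 0.25 and 0.28 on replicates 1, 2 and 3. In limma, 3 of the 40 were called higher and 1 lower (0.505% and 0.177% of all kept probes). An unadjusted limma p below 0.05 was found for 18 (15.2% of all kept probes). Means of single midgut markers ran from -2.55 to 1.67, so this list did not move as 1 group. Fat body and haemolymph markers (16 of 45 kept, 10 called higher, beside 0.505% of all kept probes) had medians of 2.22, 1.59 and 2.36, with sums of 37803 to 197823 in phoxim and 15436 to 48777 in control. No probe of the array was called with replicate 2 turned, with a dye term or over all gene probes, so those 10 calls and the midgut calls were lost there. The median of the turned means of the fat body and haemolymph list was 0.95. Muscle markers (20 of 100 kept) had medians of 0.80, 0.42 and 0.52, with sums of 106898 to 148719 in phoxim and 74369 to 97750 in control. None of the 20 was called, but 15 had an unadjusted limma p below 0.05 (15.2% of all kept probes). Their means were above 0 for 19 of 20 (2162 of 3964 kept probes), and the median of their turned means was 0.32. Haemocyte markers (4 of 21 kept, 1 called higher, beside 0.505% of all kept probes, and lost likewise) had medians of 1.04, 1.37 and 0.61, with sums of 3431 to 4595 and 1130 to 3574. The single kept Malpighian tubule marker of 4 gave 0.21, 0.27 and 0.30, at 3094 to 5018 in phoxim and 2437 to 4326 in control. This tissue also uses the V-ATPase. Trachea and cuticle markers (7 of 100 kept) gave 0.60, 0.33 and -0.29, with sums of 25224 to 29724 and 17270 to 35982, and nerve markers (3 of 23) gave 0.23, 0.40 and -0.10, with sums of 4765 to 6379 and 5027 to 7074. None of 13 silk gland probes was kept. The part of other tissues in the V-ATPase values was not tested.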

How the data were processed

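Midgut RNA of phoxim-fed and control larvae was co-hybridised on 3 two-colour arrays. The deposited tables give each spot a linear Cy5 and Cy3 intensity and, per the file headers, a ratio of phoxim to control. The authors' ratio differs from the quotient of both intensities and was taken as normalized within each array, by a method not given in the sources used here. Its log2 makes up the deposited value table, to within 4.9e-09, with medians of 0.040, -0.021 and 0.016, so scale, centring and direction are those of the ratio. The planned normexp correction was not needed. The authors' mark was found on spots whose brighter channel reached 400. Control spots were left out.

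Gene probes marked on all arrays were fitted with an intercept in limma 3.58.1 (R 4.3.3; two-sided, eBayes without trend, Benjamini-Hochberg adjustment over 3964 probes, threshold 0.05), tested on simulated data first. Every member is named, and in each pathway list each called probe and the one with the smallest p. All 10 gene identifiers matched the silkworm RefSeq table, used for names only. Members and lists were chosen with earlier results of these data known. Lists are described by counts and medians, with no test of their own. Alternatives were each array left out, replicate 2 turned, centring, scaling, loess with an offset of 50, 2 other filters, a dye term and an intensity trend. The number of arrays limits the precision.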

Additional observations from a re-analysis of the deposited data

How the results depend on the processing

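With 3 arrays, leaving out 1 gave -0.28 to 0.033 for the median of the 16 V-ATPase means and 0 to 1 V-ATPase calls, the 1 being subunit C (sw14354, -1.35) without replicate 3. Every other setting called 0 members. After loess from the intensities the median of the 16 means was -0.27. Calls on the whole array (27) ranged from 4 without replicate 2 to 470 without replicate 3. They numbered 0 with replicate 2 turned (29 at an unadjusted p below 0.05), 1 after scaling, 16 with both channels at the signal level, 0 over all gene probes (450 unadjusted) and 0 with a dye term (348 unadjusted). The pump-related lists (1 call) ranged from 0 without replicate 1 or 2 to 7 without replicate 3. They gave 0 calls with replicate 2 turned, scaling, loess, all gene probes or a dye term. The cause was not tested.

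Single means changed sign as follows. With replicate 2 turned they were 0.25 for sw14793, 0.0064 for sw13290, 0.071 for sw12174, 0.14 for sw09128, 0.056 for sw08178 and 0.19 for sw07674. After median centring sw00795 was at -0.013. After loess from the intensities sw13277 was at -0.048, sw00795 at -0.16, sw17542 at -0.00068 and sw09511 at -0.075. Over arrays left out, ranges were -0.45 to 0.26 for sw22916, -0.53 to 0.0072 for sw09128, -0.28 to 0.13 for sw14397 and -0.40 to 0.12 for sw07674. The ranges were -0.28 to 0.15 for sw14793, -0.011 to 0.42 for sw13277, -0.24 to 0.25 for sw00795, -0.0014 to 0.21 for sw09511 and -1.35 to -0.19 for sw14354. The count of 16 highest on replicate 3 was 9 with replicate 2 turned, and the count of 15 with the larger SD in phoxim was 8 with the labels' dyes. Both settings were chosen after seeing the data. Members read 577 to 33430, while the level below which 95% of negative control spots lay was 86.9 to 348, depending on array and channel.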

Other observations

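The 7 V-ATPase probes without the signal mark on every array were 5 probes described as subunit a and 2 described as subunit D. Subunit a probe sw14903 came closest to membership, with the mark on 1 array. It read 297 against 414 in phoxim and control on replicate 1, 345 against 267 on replicate 2 and 252 against 361 on replicate 3, and lay above 95% of negative control spots in 5 of 6 channels. The members nearest to the mark were sw09128, at 577 to 1234, and sw13290, at 600 to 1059. Other subunit a probes read 207 to 293 (sw13404), 53 to 364 (sw12796), 11 to 181 (sw00638) and 29 to 131 (sw06556). The subunit D probes read 0 to 39 (sw13151, LOC733120) and 0 to 102 (sw05666), without a channel above 95% of negative control spots. The marked subunit D probe, sw08178, belongs to a different gene identifier, LOC692984.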
